A study of Mus musculus with 4 samples.

Results

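The class I odorant receptor genes were taken as the genes from Olfr543 to Olfr691 by name, without those that carry a pseudogene suffix, which lie together on chromosome 7. This rule gave 117 of the 55511 genes in the count table, and these were 10.5% of the 1118 Olfr genes without that suffix. The first and the last of them spanned chr7:102476579-105342270 on the GRCm38 build, and every one of the 117 was annotated there. By annotation 114 were protein coding, 2 were polymorphic pseudogenes and 1 was a transcribed unprocessed pseudogene. The interval also holds 38 Olfr genes that the rule does not take, 9 of them without the suffix. The Olfr genes outside this interval are called class II below, except Olfr692, which lies just beside it and was put in neither class. Dissociated cells of the main olfactory epithelium, the sensory sheet of the nasal cavity, were measured in 4 male C57BL/6 mice aged 8 weeks, in 1 group at rest and with 1 library per mouse. The labels name no transgene or deletion, live nucleated cells were sorted before capture, and the mouse was the replicate throughout. Transcripts were counted from their 3′ ends as unique molecular identifiers (UMIs), each of which stands for 1 captured molecule.

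An olfactory sensory neuron (OSN) transcribes 1 odorant receptor gene out of a very large family, and the chosen receptor sets both the odorants it detects and the target of its axon. Class I receptors resemble those of fish, many of them respond to water-soluble odorants such as carboxylic acids, and their genes form a cluster of their own, whereas class II genes are scattered over many chromosomes. Neurons with class I receptors are known to sit mostly in the dorsal zone of the epithelium, which is marked by the enzyme gene Nqo1, while the ventral zones are marked by the transcription factor gene Nfix.

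The 4 libraries held from 23157467 to 32382702 UMIs, and 15859 of 21809 barcodes were kept as cells by the authors, of which 10519 were mature OSNs. A receptor identity, which required 1 receptor above a lower limit of expression and no second receptor above it, had been given to 9791 of them. The median neuron held from 4004 to 6591 UMIs by mouse. Omp, the olfactory marker protein, was found in 992 of 992 class I neurons. The authors had used Omp to call mature OSNs, so this is no independent check. Markers of other cell types, summed over each list, were at 0 to 0.0770 UMIs per 10000 by mouse for horizontal basal cells (Krt5, Krt14, Trp63), 0 to 0.0671 for immune cells (Ptprc, Cd74), 0.0385 to 0.0777 for sustentacular cells, 0.0107 to 0.0444 for microvillar cells and 0.123 to 0.300 for neuronal precursors. Of these markers Trp63 and Ptprc were at 0 UMIs in all 992 neurons. The hemoglobin gene Hbb-bs was at 0.408 ± 0.339 UMIs per 10000 (SD, n = 4) in class I neurons and at 0.382 ± 0.324 in class II neurons. Between libraries 54 barcodes were shared, and these included 6 class I neurons.

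Class I identities were given to 992 neurons, 324, 236, 206 and 226 in mice 1 to 4. They made up 12.0%, 10.1%, 11.7% and 7.53% of the neurons with an identity, a mean of 10.3% ± 2.06 (SD, n = 4), beside the 10.5% of Olfr genes that the members represent. Mouse 4 had the lowest share. Of the 158 identified neurons in neither class, 68 had 1 of 9 Olfr genes that lie inside the interval but are no members, or 0.695% of identified neurons, 11 had an Olfr gene beside the interval, and 79 had a receptor not named Olfr. Those 9 genes were left out by name and not by position, so the class I shares given here cover the members only. Of the 117 members, 96 were the identity of at least 1 neuron and 21 of none, while 84 had at least 3 neurons and 40 at least 10. Neurons of 50 members were found in all 4 mice, of 19 in 3 mice, of 19 in 2 mice and of 8 in 1 mouse. A member with 0 of 9791 neurons could still hold a share of up to 0.0306%, a limit that covers counting error only.

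The neurons were spread unequally over the members. The median member had 6 neurons, and the 12 most frequent ones held 363 neurons, or 36.6% of all. Olfr591 (chr7:103167074-103178340) was the most frequent, with 11, 14, 8 and 8 neurons in mice 1 to 4, or 0.432% ± 0.136 of identified neurons (SD, n = 4). Olfr655 (chr7:104595301-104601779) had 14, 14, 5 and 4 neurons, or 0.384% ± 0.214. Olfr672 (chr7:104995760-105002029) had 8, 10, 10 and 8 neurons, or 0.390% ± 0.138. The ranges of these members overlapped between mice, so that their order is not resolved. The same holds for Olfr689 with 11, 9, 7 and 5 neurons, Olfr586 with 6, 6, 8 and 11, and Olfr552 with 10, 4, 6 and 9. Olfr661 had 10, 8 and 11 neurons in mice 1 to 3 and 1 neuron in mouse 4, the widest spread among the frequent members, at 0.343% ± 0.243. Olfr681 had 29 neurons, Olfr686 27, Olfr594 25, Olfr566 23 and Olfr592 23. The number of neurons per member was alike in the 4 mice as a description, with a Spearman rho of 0.607 to 0.683 over the 117 members in the 6 pairs of mice. This includes the 21 members with no neuron in any mouse, and no value over the 96 members with neurons is given.

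**Figure D1:**
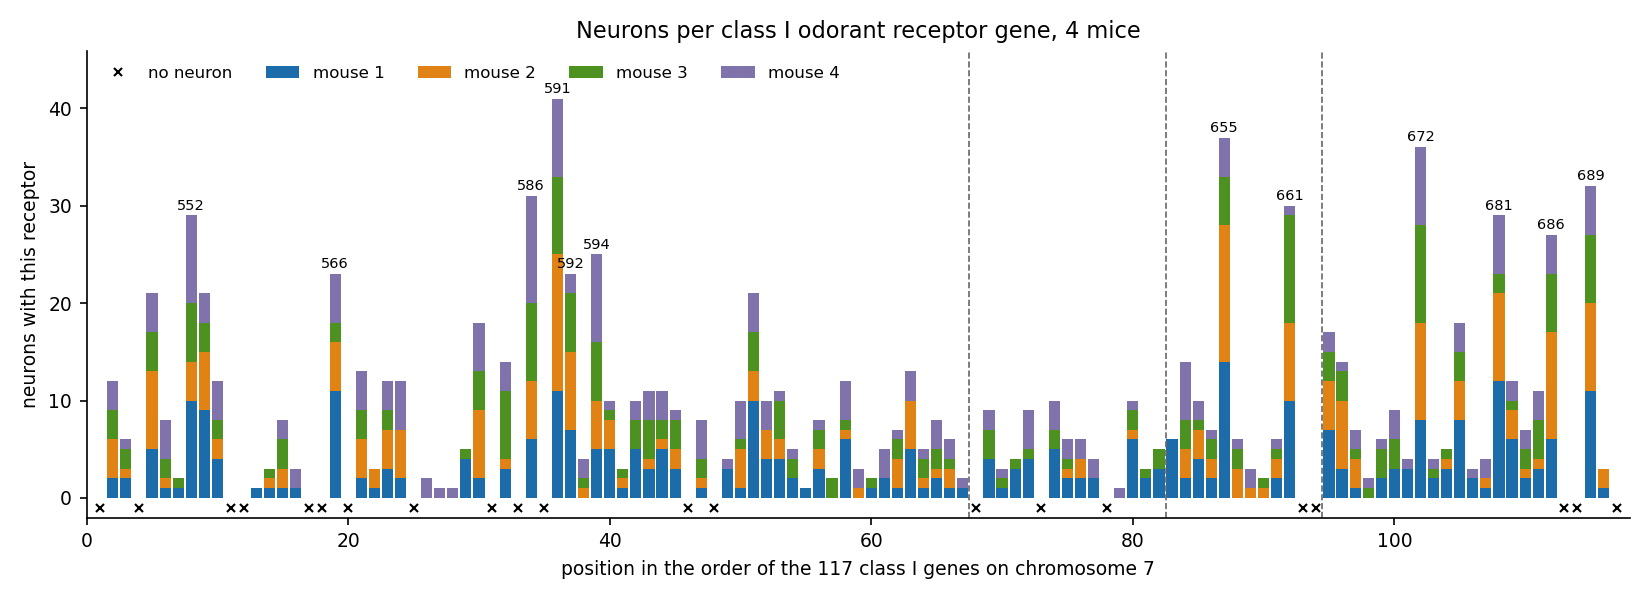
Neurons with each class I receptor identity (y axis, number of neurons) against the position of the 117 genes in their order on chromosome 7 (x axis), stacked by mouse. Crosses mark the 21 genes with no neuron, dashed lines mark gaps of over 100 kb, and the 12 most frequent genes, from 23 to 41 neurons, are labelled by their number.

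To see whether frequency followed gene order, the cluster was split at its 3 gaps of over 100 kb, which measured 171492, 354148 and 143669 bases. These are gaps between members, and the first of them holds 6 Olfr genes that are no members. The resulting stretch from Olfr543 to Olfr630 held 67 members and 551 neurons, or 56.0% ± 4.92 of class I neurons (SD, n = 4) for 57.3% of the members. The stretch from Olfr631 to Olfr649 held 15 members and 70 neurons, or 6.74% ± 3.70 for 12.8% of the members. It took 10.5%, 1.69%, 6.80% and 7.96% of class I neurons in mice 1 to 4, below its share of members in every mouse. The stretch from Olfr651 to Olfr664 held 12 members and 121 neurons, or 12.2% ± 3.17 for 10.3% of the members. The last stretch, from Olfr665 to Olfr691, held 23 members and 250 neurons, or 25.1% ± 2.97 for 19.7% of the members, and was above its share of members in every mouse, at 25.9%, 28.4%, 24.8% and 21.2%. The second stretch averaged 4.67 neurons per member, against 8.22, 10.1 and 10.9 in the others.

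To see whether neighbours were alike in frequency, each member was set beside the next one. Another Olfr gene lies between the members of 25 of the 116 pairs, in 4 of them one without the pseudogene suffix. Across the 116 pairs the Spearman rho of their neuron numbers was -0.09, a description over pairs that share genes. The largest contrast was between Olfr589, with 0 neurons, and Olfr591, with 41, whose gene models lie 10718 bases apart on the same strand. Olfr672, with 36 neurons, lay between Olfr671 and Olfr675, with 4 neurons each. Olfr688 with 0 and Olfr689 with 32 neurons formed a pair with the same difference of 32. Olfr589 and Olfr688 both had no annotated 3′ untranslated stretch beyond the stop codon, a group described below in which most members had no neuron. Its part in these contrasts was not tested. The 61 members on the plus strand had 489 neurons and the 56 on the minus strand 503, with a median of 6 on both, while 14 members on the plus strand and 7 on the minus strand had none. The difference between the strands was not tested.

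Members without neurons mostly had short gene models. In the GENCODE M21 annotation, 13 of the 116 members with a coding model had no 3′ untranslated stretch beyond the stop codon (at most 3 bases). Of these 13, 12 had no neuron, and the exception was Olfr593 with 4 neurons. Of the 103 members with a longer stretch, 95 had neurons and 8 had none. The median 3′ untranslated stretch was 3 bases in the 20 members without neurons and 1868 bases in the 96 members with neurons. In 8 members no UMI was found in any of the 21809 barcodes, namely Olfr547, Olfr564, Olfr568, Olfr583, Olfr606, Olfr631, Olfr663 and Olfr664 (chosen after their values were seen), and 7 of these 8 had no such stretch. The counts come from transcript 3′ ends and were made by the authors with an annotation in which the 3′ ends of receptor genes had been redrawn. The stretch lengths given here come from GENCODE M21 and not from that annotation, so the part of the gene models in these zeros was not tested.

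**Figure D2:**
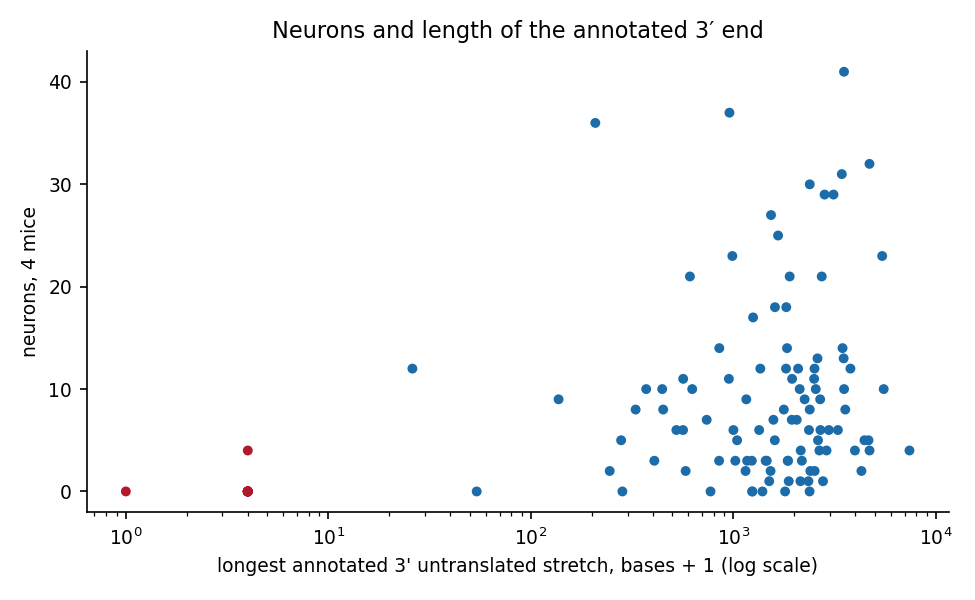
Number of neurons over 4 mice (y axis) against the longest 3′ untranslated stretch annotated in GENCODE M21 plus 1 base (x axis, log scale), 1 point per class I gene for the 116 with a coding model. Red points are the 13 genes with at most 3 bases, of which 12 lie at 0 neurons, and blue points are the other 103, of which 8 lie at 0.

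The level of a receptor, given as UMIs of the identity receptor per 10000 UMIs of its neuron, varied widely between members. Over the 40 members with at least 10 neurons, the median level had a median of 70.4 and ran from 12.0 to 313, a 26.1-fold range. Olfr592 was the highest, with means of 272, 368, 294 and 373 UMIs per 10000 in mice 1 to 4 (327 ± 51.3, SD, n = 4). Olfr586 followed with 257, 190, 247 and 225 (230 ± 29.8). Olfr672 had 260, 223, 207 and 234 (231 ± 22.2). The last 2 overlapped between mice and cannot be ordered, and the mean of Olfr592 was above both in every mouse.

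At the low end, Olfr571 had means of 16.6, 14.7, 18.9 and 16.6 UMIs per 10000 (16.7 ± 1.73) and a median of 8 receptor UMIs per neuron. Olfr686 had 41.5, 33.9, 27.5 and 21.8 (31.2 ± 8.46) and a median of 12 receptor UMIs per neuron. Olfr569 had 34.4, 58.8, 37.8 and 24.4 (38.9 ± 14.4), which overlapped with Olfr686. The 12 neurons of Olfr571 ran from 9.13 to 29.9 UMIs per 10000, so its highest neuron lay below the lowest one of Olfr592, at 138. Since an identity needed a minimum level, neurons that transcribe such receptors at still lower levels would carry no identity. Frequency and level had no single direction as a description, with a Spearman rho of -0.20 over the 84 members with at least 3 neurons and of 0.31 over the 40 with at least 10.

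**Figure D3:**
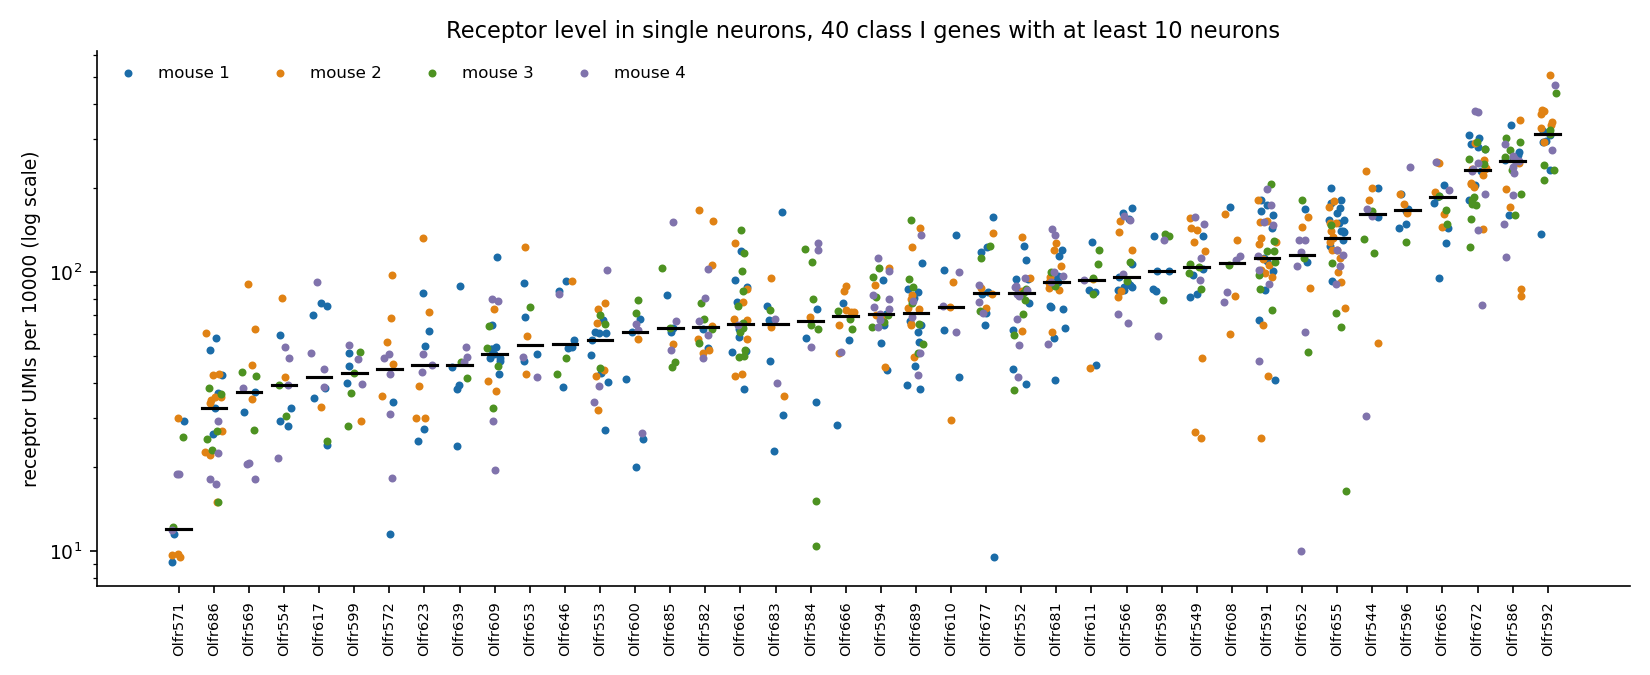
Receptor UMIs per 10000 UMIs (y axis, log scale) in each neuron of the 40 class I genes with at least 10 neurons (x axis, ordered by median), coloured by mouse, with black bars for the medians. Neurons of Olfr571 lie between 9.13 and 29.9 and those of Olfr592 between 138 and 510, with no overlap.

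To compare levels between the classes, the mean over neurons was taken in each mouse. Class I neurons had 102.2, 108.8, 103.5 and 99.5 UMIs of their receptor per 10000 in mice 1 to 4 (103.5 ± 3.87, SD, n = 4), and class II neurons had 92.4, 95.2, 93.1 and 94.5 (93.8 ± 1.28). Class I was higher in 4 of 4 mice and the groups did not overlap, with a mean difference of 9.71 ± 3.52 (exact two-sided sign-flip permutation test, p = 0.125, the smallest that 4 mice allow, and 0.15 after Benjamini-Hochberg adjustment over 6 such tests). Among neurons of dorsal clusters the levels were 107.7 ± 5.15 in class I and 95.5 ± 2.04 in class II, also higher in 4 of 4 mice (exact permutation p = 0.125, adjusted 0.15). The difference between the classes was smaller with other averages, at 3.79 for the median over neurons, 5.08 with each receptor weighted equally and 4.72 in neurons with exactly 1 receptor detected. Within dorsal clusters it was 6.27 for the median over neurons and 7.36 with each receptor weighted equally.

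Class I neurons lay almost wholly in clusters that the authors had called dorsal (D.), which they had built with the receptor genes left out. The dorsal share was 92.2%, 91.9%, 89.0% and 94.1% of class I neurons in mice 1 to 4 (91.8% ± 2.09, SD, n = 4) and 21.5%, 18.1%, 23.7% and 19.6% of class II neurons (20.7% ± 2.42). The groups did not overlap and class I was higher in 4 of 4 mice (exact two-sided sign-flip permutation test, p = 0.125, the smallest possible, adjusted 0.15). Zone markers followed the clusters. In UMIs per 10000, Nqo1 stood at 25.6 ± 4.49 in neurons of class I and at 4.98 ± 0.926 in those of class II, and Nfix at 0.226 ± 0.124 and 4.40 ± 0.453. These markers served to build the clusters and are given as levels without a test. Class I neurons made up 59.5% ± 5.12 of the Cd36+ D. cluster and 61.0% ± 6.58 of the Cd55+ D. cluster, clusters named after genes of a fatty acid transporter and a complement regulator. They were 36.3% ± 5.82 of Dlg2+ D., 31.9% ± 4.82 of the plain Dorsal cluster and 20.9% ± 4.53 of Calb2+ D.

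Single receptors occupied different dorsal clusters. Among the 40 members with at least 10 neurons, the main cluster was Dorsal for 17, Dlg2+ D. for 9, Calb2+ D. for 5, Cd36+ D. for 4 and Cd55+ D. for 3, while 1 each had Dlg2+ V. and Ventral. In 3 of these 40 (Olfr544, Olfr639 and Olfr681, named after their values were seen) the Dorsal cluster held as many neurons as the cluster counted here, so that their place in these counts is arbitrary. For 22 of the 40, at least 80% of neurons were in 1 cluster. Olfr553 had 21 of 21 neurons in Cd36+ D. (exact binomial 95% interval 83.9% to 100%), with 9, 6, 3 and 3 neurons from mice 1 to 4. Olfr677 had 18 of 18 in Calb2+ D. (81.5% to 100%), and Olfr599 had 11 of 11 in Dlg2+ D. (71.5% to 100%); Olfr553 and Olfr599 were chosen after their values were seen. Of the frequent members, Olfr592 had 21 of 23 neurons in Cd55+ D., and Olfr552 had 28 of 29 in Dorsal. These intervals cover counting error only.

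**Figure D4:**
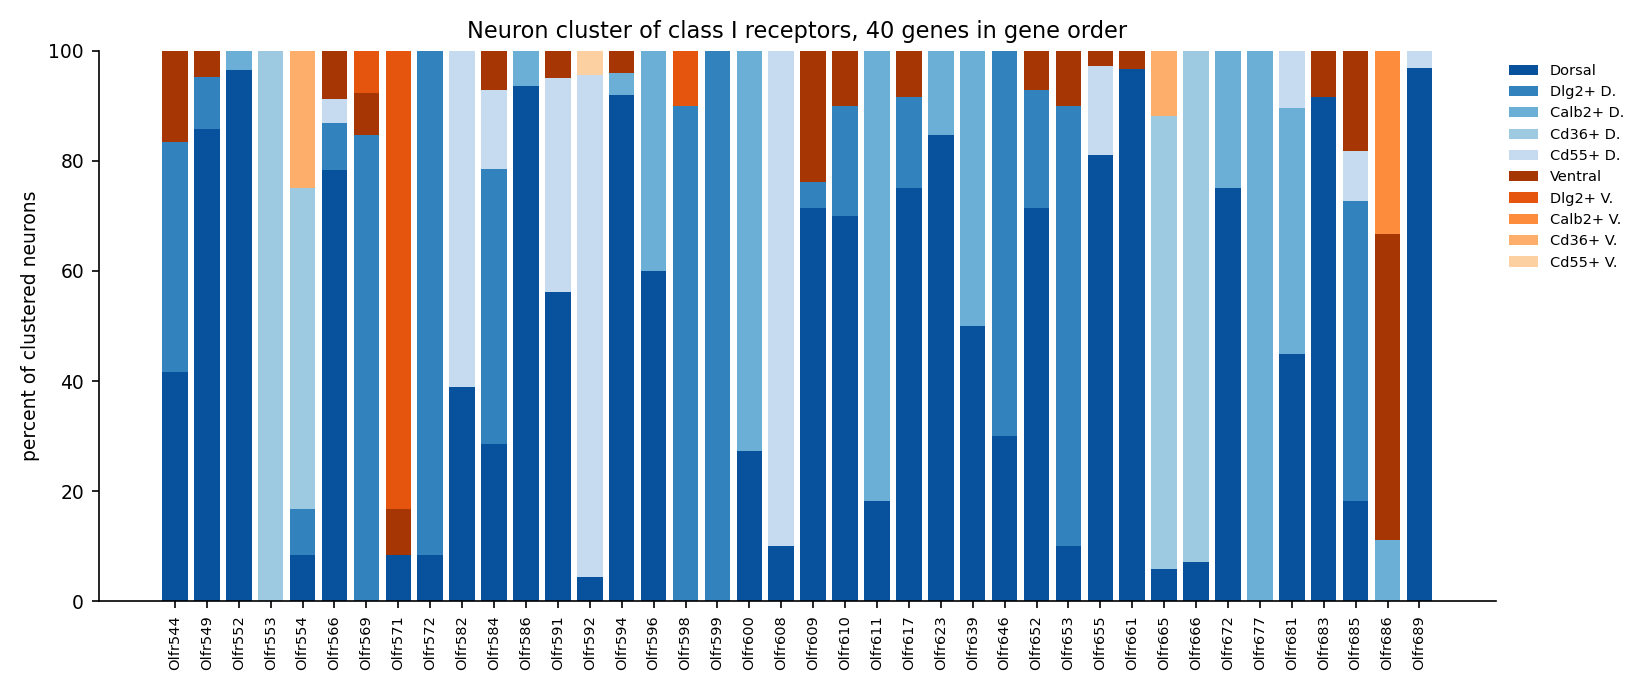
Percent of neurons (y axis) in each of the 10 mature OSN clusters for the 40 class I genes with at least 10 neurons (x axis, in gene order), with dorsal clusters in blues and ventral clusters in oranges and browns. Ventral colours fill most of the bar only for Olfr571 and Olfr686, and in the other 38 genes at least 75% of neurons are dorsal.

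Cluster makeup was also set out by stretch, as a description whose SD covers mice and not genes. Cd36+ D. held 9.69% ± 0.631 of the clustered neurons of the stretch Olfr543 to Olfr630, none of the 69 of Olfr631 to Olfr649, 20.0% ± 7.43 of Olfr651 to Olfr664 and 17.2% ± 4.09 of Olfr665 to Olfr691 (SD, n = 4). Calb2+ D. held 20.7% ± 1.48 of the last stretch and 6.82% ± 1.52 of the stretch from Olfr543. A few receptors made up much of these values. Of the 52 Calb2+ D. neurons of the last stretch, 18 had Olfr677, 13 Olfr681 and 9 Olfr672. Of its 43 Cd36+ D. neurons, 14 had Olfr665 and 13 Olfr666. A difference between stretches can therefore not be told apart from one between single receptors. Dlg2+ D. held 41.3% ± 24.9 of the stretch Olfr631 to Olfr649, with a spread between mice that reaches the 17.6% ± 2.08 of the stretch before it. Immediate neighbours shared a main cluster in 18 of 61 pairs (29.5%) with at least 3 clustered neurons on each side, against 900 of 3486 pairs of any such members (25.8%).

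Olfr571 and Olfr686 were the 2 members among the 40 with under 50% of neurons in dorsal clusters. Of the 12 neurons of Olfr571, 1 was dorsal (8.33%, exact binomial interval 0.211% to 38.5%) and 10 were in the cluster Dlg2+ V., with 2, 3, 2 and 3 of these from mice 1 to 4. Of the 27 neurons of Olfr686, 3 were dorsal (11.1%, 2.35% to 29.2%), 15 were in the Ventral cluster and 9 in Calb2+ V. In mice 1 to 4, 6 of 6, 9 of 11, 5 of 6 and 4 of 4 of its neurons were ventral. The dorsal marker Nqo1 was at 1.10 ± 2.20 UMIs per 10000 in Olfr571 neurons and at 2.51 ± 2.95 in Olfr686 neurons (SD, n = 4), below its range of 21.1 to 31.4 over the mice in class I neurons as a whole. The ventral marker Nfix was at 1.76 ± 1.91 and 4.29 ± 1.63, against 0.226 ± 0.124 in class I neurons. Omp was at 58.9 ± 8.12 and 66.0 ± 10.3. Markers of horizontal basal and of microvillar cells were at 0 UMIs in both. Of the other lists, the sustentacular gene Cyp2g1 had 1 UMI in each, the immune gene Cd74 had 1 UMI in Olfr686 neurons, and Sox11 of neuronal precursors had 1 UMI in Olfr571 neurons and 4 in Olfr686 neurons. Hemoglobin genes had 4 UMIs in Olfr571 neurons and 2 in Olfr686 neurons. Markers of immature neurons summed to 0.629 to 3.13 UMIs per 10000 by mouse in Olfr571 neurons and 0.231 to 2.67 in Olfr686 neurons, ranges that include the 0.953 to 1.26 of class I neurons.

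To test the side of each receptor, UMIs of all mature neurons of dorsal and of ventral clusters were summed per mouse and compared across 12406 genes with edgeR, with the mouse as a block. Of these genes 25.5% passed the adjusted threshold of 0.05, 12.2% higher in dorsal and 13.3% higher in ventral sums. Among class II receptor genes 85.7% of those tested passed. Of the 117 class I members, 54 had enough counts to be tested and 53 passed, 52 of them higher in dorsal neurons. These counts are no support for a direction, since a member that is high in dorsal neurons and near 0 in ventral ones could enter the test through its dorsal sums alone. Of the 54, 23 had at most 3 ventral UMIs and 8 had none, and the other 63 members were not tested. In such sums, fewer neurons with a receptor and less of it per neuron cannot be told apart.

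For members that were near 0 in ventral sums, values are given without a test. Olfr672 had 2.74, 4.64, 3.85 and 2.40 UMIs per 10000 in the dorsal sums of mice 1 to 4 and from 0 to 0.00968 in the ventral sums, or 4538 against 20 UMIs. Olfr681 had 1395 dorsal against 4 ventral UMIs, Olfr689 1397 against 4, Olfr655 2473 against 37 and Olfr586 3845 against 3. In each of these receptors the dorsal and ventral values did not overlap.

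Olfr686 and Olfr571 had more ventral than dorsal UMIs in total and are given without a test, since they were low in dorsal sums and the same neurons had set their side above. Olfr686 had 0, 0.0687, 0.0394 and 0 UMIs per 10000 in dorsal sums and 0.117, 0.157, 0.102 and 0.0352 in ventral sums, or 32 against 352 UMIs. It was lower in dorsal sums in 4 of 4 mice, but the values overlapped. Olfr571 had 14 dorsal against 102 ventral UMIs and a higher dorsal value in 1 of 4 mice.

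Class I receptors were then followed in immature OSNs of the early (iOSN1, 866 cells) and late (iOSN2, 1006 cells) stages. At least 1 UMI was found of 62 members in iOSN1, of 71 in iOSN2 and of 105 in mature OSNs, at unequal numbers of cells. The class I share of all Olfr UMIs was 13.3%, 5.46%, 14.8% and 3.53% in iOSN1 of mice 1 to 4 (9.26% ± 5.60, SD, n = 4). It was 10.6%, 3.75%, 9.84% and 7.68% in iOSN2 (7.95% ± 3.06) and 14.1%, 11.4%, 12.9% and 7.99% in mature OSNs (11.6% ± 2.65). The share was lower in iOSN2 than in mature OSNs in 4 of 4 mice, with the smallest gap in mouse 4 and with overlapping ranges (exact two-sided sign-flip permutation test, p = 0.125, the smallest possible, adjusted 0.15). Counted by cells, the share with a class I gene as the highest receptor was 10.5%, 4.72%, 9.69% and 9.27% in iOSN2 and 12.3%, 10.0%, 11.7% and 7.58% in mature OSNs, so that mouse 4 went the other way. For iOSN1 the UMI share was lower in 3 of 4 mice (exact permutation p = 0.375, adjusted 0.375). Hemoglobin genes summed to 17.2 UMIs per 10000 in iOSN1 of mouse 4, against 0.0889, 0.510 and 0.166 in mice 1 to 3. Their part in the low iOSN1 share of mouse 4 was not tested. Without mouse 2 the mean difference was -2.32 points for iOSN2, against -3.65 with all mice, and -1.15 points for iOSN1, against -2.34.

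Detection per cell was set beside cells that should lack receptors. After thinning to 3000 UMIs per cell, a class I UMI was present in 8.07% ± 4.14 of iOSN1, 10.2% ± 2.20 of iOSN2 and 12.1% ± 2.60 of mature OSNs (SD, n = 4), with ranges that overlap. In mouse 4 it was higher in iOSN2 (9.16%) than in mature OSNs (8.45%). In cells that are not neurons it was present in 1.99% ± 1.55 of microvillar 2 cells, 2.88% of sustentacular cells, 3.05% and 3.10% of both groups of horizontal basal cells and 3.94% of microvillar 1 cells. The thinning left out cells below that depth and kept 831 iOSN1, 962 iOSN2, 8947 mature OSNs and 1523 microvillar 2 cells. Unthinned, the shares in these were 10.8%, 12.7%, 13.5% and 3.48%. In cells whose highest receptor was of class I, that receptor was at 55.1 ± 16.7 UMIs per 10000 in iOSN1, 73.5 ± 8.12 in iOSN2 and 101.2 ± 3.29 in mature OSNs. In cells led by another Olfr gene, that gene was at 33.5 ± 5.53, 75.3 ± 3.45 and 90.8 ± 1.20, so that the rise was not particular to class I.

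In the immature stages each receptor rested on a few cells. In iOSN1, Olfr640 had the most UMIs, 251 in 3 cells of mice 1 and 3, followed by Olfr672 with 213 UMIs in 4 cells of mice 1 and 2. Olfr642 and Olfr685 had 138 UMIs each, in 1 and 2 cells, and Olfr633 had 131 in 1 cell. In iOSN2, Olfr670 led with 337 UMIs in 5 cells, followed by Olfr676 with 289 in 3, Olfr657 and Olfr669 with 227 each in 3 and Olfr679 with 201 in 1. These leading members differed between the stages, and at 1 to 5 cells no order between them can be drawn.

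**Figure D5:**
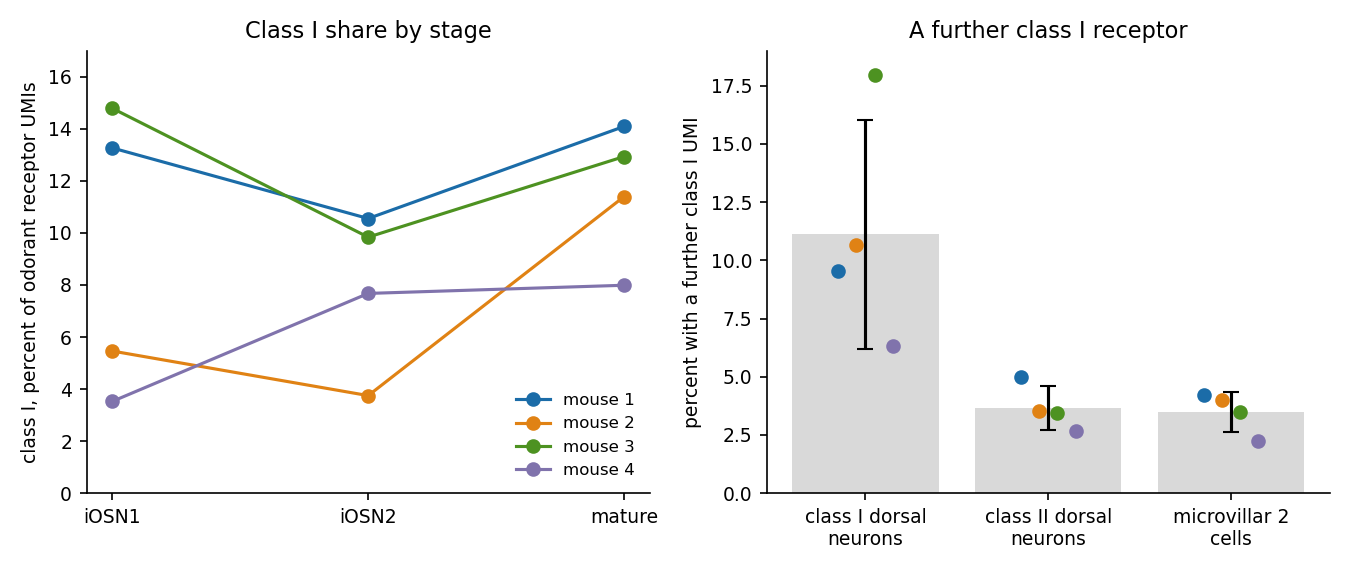
Left, class I UMIs as a percent of all Olfr UMIs (y axis) in iOSN1, iOSN2 and mature OSNs, with 1 line per mouse; all 4 lines rise from iOSN2 to mature, by little in mouse 4. Right, percent of cells with a UMI of a class I receptor other than their identity (y axis) in class I dorsal neurons, class II dorsal neurons and microvillar 2 cells, with bars for the mean, error bars for the SD and points for the 4 mice; class I lies at 6.31% to 18.0% and the others at 2.24% to 4.98%.

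Some members with few or no mature neurons had UMIs in immature cells (named after their values were seen). Olfr543 was the identity of 0 mature neurons and had 1 UMI in all mature OSNs, but 58 UMIs in 3 iOSN1 cells, 57 of them in mouse 3. Olfr561 also had 0 neurons and 1 mature UMI, against 95 UMIs in 2 iOSN1 cells and 34 UMIs in 1 iOSN2 cell. Olfr556 had 0 mature UMIs and 67 UMIs in 2 iOSN2 cells, 65 of them in mouse 3. Olfr557 had 1 mature neuron and 182 UMIs in 3 iOSN2 cells. Each of these rests on 1 to 3 cells, and with 10519 mature against 866 and 1006 immature cells no test of single members by cells was made.

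The sums of mature OSNs and of iOSN2 were compared across 12954 genes with edgeR, again with the mouse as a block. Of all genes 38.4% passed, 19% higher in mature OSNs and 19.4% higher in iOSN2. Of the 117 members, 57 were tested and 21 passed (19 higher in mature OSNs, 2 in iOSN2), beside 33.1% of the class II receptor genes tested. The mature sums hold many more cells, and a member could enter the test through them alone, so that the split of these calls is no support for a direction. Of the 57, 15 had at most 3 UMIs in iOSN2 and 7 had none, and the other 60 members were not tested.

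Members that were near 0 in iOSN2 are likewise given without a test. Olfr672 had 0.903, 1.19, 1.29 and 0.510 UMIs per 10000 in mature OSNs of mice 1 to 4 and at most 0.0104 in iOSN2. Its 4 UMIs in iOSN2 were in 4 cells, 1 in each. Olfr592 had 4617 mature against 1 iOSN2 UMI, Olfr677 824 against 1, Olfr566 1237 against 2 and Olfr586 4047 against 0. By their mature frequency, from 1.72 to 3.44 iOSN2 cells were expected for these 5 members, so that at this number of cells no difference in their frequency could be detected, and no fold change is given.

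Olfr670 and Olfr613 were the members called higher in iOSN2, each from a few cells. Olfr670 had 0.515, 0, 0.892 and 0.248 UMIs per 10000 in iOSN2 and 0.117, 0, 0.179 and 0.0854 in mature OSNs, higher in 3 of 4 mice with overlapping values, a log2 difference of -2.00 (SE 0.19, edgeR adjusted p = 0.00051). Its iOSN2 UMIs came from 5 cells and it was the identity of 9 mature neurons, so few that this SE and p may be too small. Without the mouse as a block its adjusted p was 0.145. Olfr613 had 0.432, 0.0971, 0 and 0.192 UMIs per 10000 in iOSN2, or 153 UMIs in 4 cells, and 0.0303, 0, 0 and 0 in mature OSNs, where all 51 UMIs were in mouse 1 and it was the identity of 1 neuron. It was higher in iOSN2 in 3 of 4 mice with overlapping values, and since 3 mice were at 0 in mature OSNs no test is given.

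Mature neurons with a class I identity in part held UMIs of a further class I receptor. Among dorsal neurons, 9.52%, 10.6%, 18.0% and 6.31% of class I neurons of mice 1 to 4 did so (11.1% ± 4.93, SD, n = 4, 96 of 894 neurons with a median of 5069 UMIs). Among class II neurons the share was 4.98%, 3.54%, 3.43% and 2.68% (3.66% ± 0.962, 63 of 1722 neurons with a median of 4554 UMIs). Microvillar 2 cells, which should lack receptors, had a class I UMI in 3.48% ± 0.875 (61 of 1768 cells, median 5081 UMIs). Class I was above class II in 4 of 4 mice without overlap, by 7.46 ± 4.95 points (exact two-sided sign-flip permutation test, p = 0.125, the smallest possible, adjusted 0.15). Only class I genes were counted, so that class I neurons were scored on their own class and class II neurons on the other. A further class II receptor in class II neurons was not counted, so the difference cannot be called a trait of class I neurons. The difference was 4.38 points with each cell thinned to 5000 UMIs and 2.69 points when at least 2 UMIs of the further receptor were required.

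The further receptor was often the neighbour of the identity. Of 117 detections, 88 (75.2%) were of 1 UMI, and 57 (48.7%) were of the member next to the identity in the gene order. These 57 came from 23 combinations of an identity and a further gene. Of the 57, 47 were on the same strand, 40 with the further gene downstream of the identity gene and 7 with it upstream. All 7 upstream ones were Olfr611 neurons with UMIs of Olfr612. Of the 116 neighbouring pairs of members 66 are on the same strand, but the detections repeat pairs, so that these counts are not alike. The pairs named next were chosen after their values were seen. Neurons of Olfr617 held UMIs of Olfr618 in 10 of 12 cases (83.3%, exact binomial interval 51.6% to 97.9%), and Olfr618 lies 3308 bases downstream, with proteins that are 79.6% identical and with 0 stretches of 50 bases shared between their transcripts. Neurons of Olfr591 held UMIs of Olfr589 in 8 of 41 cases (19.5%, 8.82% to 34.9%), although Olfr589 was the identity of no neuron. Neurons of Olfr592 held those of Olfr593 in 5 of 23 cases (21.7%, 7.46% to 43.7%), again a downstream gene, 18897 bases away. In contrast, Olfr611 and Olfr612, where 7 of 11 neurons held both, are 98.1% identical and share 1041 of 2507 stretches of 50 bases. These stretches were taken from whole transcripts and not from the counted 3′ ends, and their part in these UMIs was not tested. To show how alike both pairs are in sequence, the starts of their coding exons are given from the start codon (GENCODE M21 transcripts, GRCm38), 120 bases each, with capitals for bases that the partner does not match in an alignment. Those of Olfr617 (chr7:103584024-103584143) and Olfr618 (chr7:103597318-103597437) are on the plus strand, and those of Olfr611 (chr7:103518263-103518382) and Olfr612 (chr7:103539113-103539232) on the minus strand.
Olfr617: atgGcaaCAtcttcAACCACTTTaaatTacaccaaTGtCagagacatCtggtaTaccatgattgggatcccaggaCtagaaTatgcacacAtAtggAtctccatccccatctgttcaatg
Olfr618: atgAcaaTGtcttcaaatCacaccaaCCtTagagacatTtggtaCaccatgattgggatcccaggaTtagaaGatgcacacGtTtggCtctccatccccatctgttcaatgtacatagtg
Olfr611: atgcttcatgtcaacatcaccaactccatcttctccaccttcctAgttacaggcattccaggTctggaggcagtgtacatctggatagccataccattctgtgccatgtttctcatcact
Olfr612: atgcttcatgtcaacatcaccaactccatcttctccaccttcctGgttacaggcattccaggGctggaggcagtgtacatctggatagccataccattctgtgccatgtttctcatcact
Over the whole coding stretch, 179 of the 957 bases of Olfr617 had no match in Olfr618, whereas Olfr611 and Olfr612 differed at 24 of 972 bases and at 2 of the 120 shown. UMIs come from transcript 3′ ends, which are not part of these stretches.

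Among 344 neurons called with several receptors, 6 had class I genes as both of their leading receptors, and 4 of these 6 were neighbours, 3 of them Olfr617 with Olfr618.

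Sequence similarity between members was compared on the proteins encoded by the longest reading frame of each, for the 116 with at least 250 residues. The closest member was 78.7% identical in the median, against 44.9% over all 6670 pairs, and for 48 members it was the direct neighbour. In 8 pairs the identity was at least 95%. Short reads may fit both genes of such a pair, and the effect on their UMIs was not tested. Olfr687 and Olfr688 were 99.6% identical and had 0 neurons each, as had Olfr583 and Olfr585 at 96.5%. Olfr687 had no annotated coding model, and its 276 residues are only the longest reading frame of its transcripts. In the other pairs neuron numbers were often unequal, with 10 for Olfr596 and 0 for Olfr603 at 98.7%, 4 for Olfr679 and 29 for Olfr681 at 97.8%, and 14 for Olfr666 and 2 for Olfr668 at 97.5%. Olfr597 and Olfr598 had 3 and 10 neurons at 97.5%, Olfr635 and Olfr638 4 and 9 at 97.8%, and Olfr611 and Olfr612 11 and 5. Of the genes with 0 neurons here, Olfr583, Olfr603 and Olfr688 had no annotated 3′ untranslated stretch beyond the stop codon, and Olfr687 had no coding model. The part of the gene models in these zeros was not tested.

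Finally, genes of 4 lists (receptor choice and feedback, receptor trafficking, transduction and zone) were compared between class I and class II neurons of dorsal clusters, on sums per mouse with receptor genes left out. Of 9380 genes tested with edgeR, 5.75% passed, 3.26% higher in class I and 2.48% higher in class II. DESeq2 called 122 genes, against 539 with edgeR. Of 42 list genes tested with edgeR, 12 passed, 4 higher and 8 lower in class I neurons. By list, 5 of 15 transduction genes passed, all lower in class I, 2 of 15 genes of receptor choice and feedback (Bcl11b lower, Emx2 higher) and 5 of 7 zone genes (2 lower, 3 higher). The median log2 difference was -0.10 over the transduction genes, -0.06 over the genes of receptor choice and 0.14 over the zone genes, against 0.00037 over all genes. Bcl11b, a transcription factor gene known to act in the choice between the receptor classes, was at 0.0822, 0.0951, 0.0920 and 0.221 UMIs per 10000 in class I neurons of mice 1 to 4 and at 0.641, 0.948, 1.03 and 0.809 in class II neurons. It was lower in class I by a log2 difference of -2.85 (SE 0.16, edgeR adjusted p = 4.1e-26) without overlap. Of the zone list's nuclear factor I genes, Nfix at -2.47 (SE 0.19) and Nfib at -1.45 (SE 0.33) were lower too, and Nfia was not tested.

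Smaller differences were found for genes of the transduction cascade. Stoml3, a stomatin-like protein of the cilium, was at 70.6, 65.1, 59.0 and 63.3 UMIs per 10000 in class I and at 90.2, 81.7, 82.9 and 82.8 in class II neurons, a log2 difference of -0.35 (SE 0.02). The channel subunit genes Cnga4 and Cnga2 differed by -0.31 and -0.18, the phosphodiesterase gene Pde4a by -0.20 and the G protein gene Gnal by -0.14, each lower in class I in 4 of 4 mice. Markers of both stages moved with this contrast. Those of immature neurons (Gap43, Gng8, Stmn1) summed to 0.971 to 1.23 UMIs per 10000 in class I and 1.53 to 2.11 in class II dorsal neurons, and those of mature neurons (Omp, Cnga2, Gng13, Adcy3, which are also transduction genes here) to 158.1 to 160.2 and 166.1 to 174.8. Their part in the result was not tested. Higher in class I were Emx2 by 0.29 (SE 0.09), Robo2 by 0.27 (SE 0.06) and Nqo1 by 0.26 (SE 0.03), a homeobox gene, an axon guidance receptor gene and a dorsal zone gene, each in 4 of 4 mice. The dorsal zone gene Acsm4 was higher by 0.14 and in 3 of 4 mice (edgeR adjusted p = 0.0436). Of the receptor trafficking genes, 0 of 5 tested passed with edgeR and 0 with DESeq2, and 1 had an unadjusted p under 0.05 in edgeR. Of the 12, only Bcl11b, Nfix, Stoml3 and Cnga4 passed under every alternative tried; without the mouse as a block 5 passed, and 7 passed without mouse 3. The dorsal clusters were built from such genes and hold the classes in unequal shares, and values within each cluster were not tested.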

How the data were processed

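The authors mapped reads to GRCm38 in Cell Ranger 6.0.1 (submitters' processing notes) with an annotation in which receptor 3′ ends had been redrawn, and deposited raw UMI counts per gene and barcode without normalisation, with a table of cell types, mature OSN clusters and receptor identities that were used as given. The merged count table and the matrices held the same values for all 117 members. The members and the gene lists were chosen with earlier results of these data known. Doublets were not called again; leaving out the 5% of cells with most UMIs in each mouse was an alternative. The share or mean of each mouse was compared by exact sign-flip permutation tests over 4 mice (smallest p 0.125), in 6 comparisons.

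UMI sums per mouse and group were tested with edgeR 4.0.16 in R 4.3.3 (TMM scaling, filterByExpr, quasi-likelihood test, Benjamini-Hochberg at 0.05 over all genes). The SE beside a log2 difference is the size of that difference divided by the square root of the test's F value. The test was also run on simulated counts, drawn independently at a fixed dispersion. Those counts do not check receptors whose UMIs come from a few cells. Sums of the same mouse share an animal and a library, which pairs them, and the mouse entered as a block. DESeq2 1.42.0, no filter, no block and each mouse left out were alternatives. Other steps used Python 3.11.15, numpy 2.4.6, scipy 1.17.1 and Biopython 1.88. Intervals of shares were exact binomial at 95%, and floors used 3 counts; both cover counting error only. Gene models and transcripts came from GENCODE M21.

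Named members were the 12 with most neurons, the 3 highest and 3 lowest levels among those with at least 10 neurons, those with under 50% dorsal neurons, the 5 leading ones in each immature stage, the 3 most unequal neighbours, up to 5 called in each direction of a test, and protein pairs of at least 95% identity. Of the list genes, every called one was named. The labels name no batch, and each sample is a separate mouse.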

Additional observations from a re-analysis of the deposited data

Results flagged for a closer look

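The share of identified neurons with Olfr689 had 1 mouse apart from the rest. It was 0.409%, 0.384% and 0.398% in mice 1 to 3 and 0.167% in mouse 4, where it rests on 5 neurons. Of 41 members or shares looked at in this way over the 4 mice, this was the 1 that stood out, and chance alone marks about 1 in 20 such groups.

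Class I UMIs were also present in the barcodes that the authors had left out, which enter no comparison of the report. They came to 1787 UMIs in the groups with a high percent of mitochondrial genes (603.8 per 1000000 UMIs), 726 in left-out mature OSN groups (943.4 per 1000000), 662 in immune cells (74.1 per 1000000), 202 in blood cells (93.0 per 1000000), 19 in developing OSN groups (175.8 per 1000000) and 4 in the mixed horizontal basal cell group (16.5 per 1000000). Their source was not tested.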

How the results depend on the processing

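No value recomputed under these alternatives changed its direction, although the rank correlation of frequency and level had opposite signs at minimums of 3 and 10 neurons (-0.20 and 0.31), and 81 of 89 alternative values of the main results stayed within their limits. Called members in the stage comparison numbered 39 with DESeq2 (of 96 tested) and 50 without the filter on low counts (of 106), against 21, and 18 without the replicate block. In the dorsal against ventral comparison 85 were called without the filter (of 94), against 53, with 70 under DESeq2 and 50 without the replicate block. Over all genes DESeq2 called 5141 by stage and 2521 by side, against 4974 and 3160 with edgeR. For the other settings, including each mouse left out, no such number is given. These member counts are therefore no result about the members. Of the list genes 6 were called with DESeq2, 5 without the replicate block and 15 without the filter, against 12. The share of cells with a class I UMI was 12.7% in iOSN2 with all UMIs, against 10.2%, and 3.55% in microvillar 2 cells thinned to 5000 UMIs, against 1.99%.

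Leaving out each mouse in turn gave 25 to 29 called members by stage, 54 to 59 by side, 7 to 11 list genes, class I shares of 9.77% to 11.3%, level differences of 8.42 to 11.3 and, in dorsal neurons, 10.3 to 13.2, dorsal share differences of 69.9 to 73.0 points, iOSN1 differences of -3.74 to -1.15, iOSN2 differences of -4.76 to -2.32, further receptor differences of 5.09 to 8.73 and 92 to 96 members with neurons. The lowest further receptor difference was that without mouse 3. The cause was not tested, except that more genes enter without a filter. Of the single genes, 552 alternative values kept their call and 43 lost it. With 4 mice no permutation test could pass 0.05, and 77 of the 117 members had under 10 neurons.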
